A study of Drosophila melanogaster with 15 samples.

Results

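The transcriptomes of Kc167 cells after knock-down of TIP60 and after knock-down of the histone variant H2A.V were compared directly. Kc167 is an established Drosophila melanogaster line of embryonic origin with the character of blood cells. Cells were treated for 6 days with dsRNA against Tip60 (TIP60) or against His2Av (H2A.V), and the members are the 3 libraries of each knock-down, 6 of the 15 libraries of the series, chosen by their titles. The other libraries are 3 each after RNAi of the DOM-A and of the DOM-B isoform of Domino, and 3 controls (CTRL). The dsRNA of CTRL replicate 2 targeted GFP and that of the other two CTRL libraries GST, and the effect of this choice cannot be told apart from the replicate. Every group is the same cell line, and every sample was mixed with D. virilis cells, at 1 for every 2 Kc167 cells, before RNA extraction, as a spike-in. RNAi lowers a transcript without removing it, so each group is a partial loss. Poly(A) RNA was sequenced, and the libraries are referred to by group and replicate number.

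TIP60 is a lysine acetyltransferase that modifies histones and other proteins as part of a large complex, which is related to NuA4 of yeast. H2A.V is the only H2A variant of Drosophila and combines the roles that H2A.Z and H2A.X have in other animals: it sits in nucleosomes around promoters and it is phosphorylated at DNA breaks. Domino, an ATPase of the SWR1 family, occurs as the isoforms DOM-A and DOM-B, and acetyltransferase and variant have long been studied as parts of one machinery. The study of these libraries proposes that the DOM-B complex places H2A.V in chromatin. It found TIP60 in the complex of DOM-A and not in that of DOM-B. The question of the direct comparison is which genes depend on the acetyltransferase and which on the histone variant.

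The gene-specific parts of the primers for the dsRNA templates are given, 5′ to 3′, because the knock-downs rest on such sequences. There were 2 primer pairs for His2Av, and the study's methods mention a Tip60 primer pair of another origin than the one shown. Which dsRNA went into which library was not given in the sources used here, for either gene. The Tip60 gene lies on chromosome X, 4114800 to 4117487 (minus strand) and His2Av on chromosome 3R, 26866929 to 26869220 (plus strand) of the dm6 assembly.
Tip60_RNAi_f1: agagacggctcacaaacagg
Tip60_RNAi_r1: attgatgcgtttctgaaggg
H2Av_RNAi_f1: cgaaaccgaattccgtagaa
H2Av_RNAi_r1: caatcgatttttctgctgcc
H2Av_RNAi_f2: gaagggcaacgtcattctgt
H2Av_RNAi_r2: gtgagtgttggggagatgct

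The libraries held 9565999 to 14679536 reads in D. melanogaster genes after TIP60 RNAi and 12280235 to 13996668 after H2A.V RNAi. Levels are normalized counts, meaning reads of a gene divided by the size factor of the library, which was computed from the D. virilis reads. They are not divided by gene length and therefore compare libraries and not genes. Fold-changes, their standard errors (SE) and adjusted p-values come from edgeR's quasi-likelihood test on 11424 genes with Benjamini-Hochberg adjustment, and a gene is called where the adjusted p is under 0.01. Defining markers of several tissues were read. Among those of blood cells, Hml had 33480.1 ± 14515 normalized counts after TIP60 RNAi and 17267 ± 9011 after H2A.V RNAi, whereas Sr-CI had 352 ± 183 after TIP60 RNAi and 9.97 ± 4.71 after H2A.V RNAi (mean ± SD, n = 3 each). The neuronal marker brp stood at 485 ± 97.3 after TIP60 RNAi and 908 ± 284 after H2A.V RNAi. The muscle regulator Mef2 stood at 379 ± 76.7 after TIP60 RNAi and 321 ± 36.5 after H2A.V RNAi. Of the muscle genes Act57B and Mlc2, the means were 83.0 and 23.7 after TIP60 RNAi and 163 and 18.0 after H2A.V RNAi. The germ line gene aub stood at 2160.3 ± 360.4 after TIP60 RNAi and 733 ± 177 after H2A.V RNAi. The germ line genes vas, nanos and bam went the other way. Their means were 16.4, 85.0 and 197 after TIP60 RNAi and 54.8, 363 and 748 after H2A.V RNAi. Near 0 were the glial marker repo, with 1.85 ± 0.867 after TIP60 RNAi and 2.13 ± 0.973 after H2A.V RNAi, and, less so, the neuronal marker nSyb and the muscle myosin Mhc, with means of 8.12 to 15.5 in both groups.

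Both knock-downs were seen in the RNA. Tip60 had 34.5, 42.5 and 46.9 normalized counts in the 3 TIP60 libraries, 164, 186 and 165 in the H2A.V libraries and 259, 242 and 275 in CTRL, and it was lower after TIP60 than after H2A.V RNAi (log2 fold-change -2.05, SE 0.17, adjusted p = 3.69e-06). That left 13.3, 17.6 and 17.1% of the same-numbered CTRL library. The groups did not overlap, and the H2A.V libraries lay between the TIP60 libraries and CTRL, with Tip60 called lower after H2A.V RNAi than in CTRL (-0.59, adjusted p = 0.0096). His2Av had 7668, 6609.7 and 7759 normalized counts after TIP60 RNAi, 221, 1930.3 and 273 after H2A.V RNAi and 11304, 12183 and 10303 in CTRL (log2 fold-change 3.52, SE 0.55, adjusted p = 0.000285). H2A.V replicate 2 kept 15.8% of the transcript of its CTRL library, while replicates 1 and 3 kept 1.96 and 2.65%. After TIP60 RNAi the His2Av transcript did not pass the test against CTRL (-0.58, adjusted p = 0.423).

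**Figure D1:**
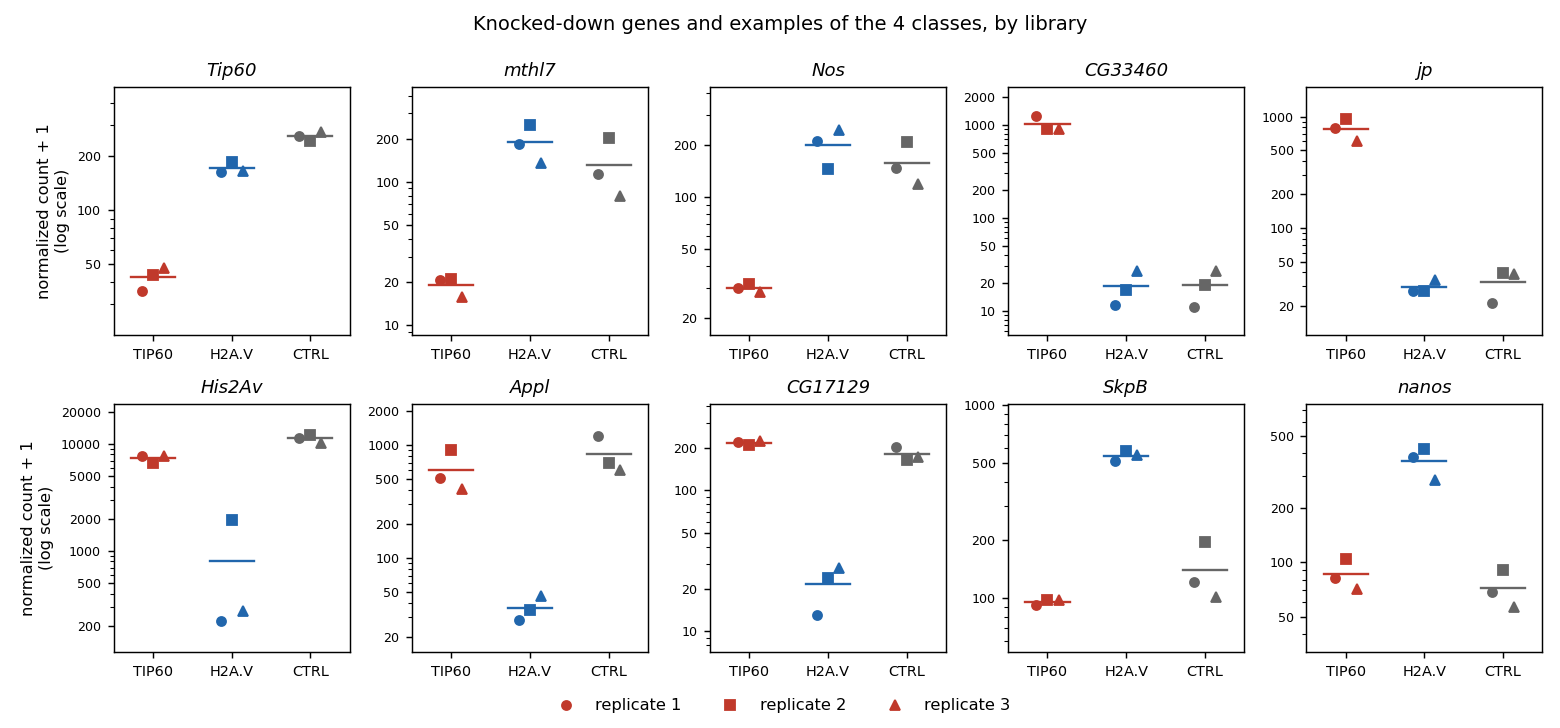
Normalized counts plus 1 (log axis) of the knocked-down genes and of 8 genes, in the 3 TIP60, 3 H2A.V and 3 CTRL libraries. Symbols mark the replicate number and lines the group means. mthl7 and Nos are lower only in the TIP60 libraries, CG33460 and jp higher only there, Appl and CG17129 lower only in the H2A.V libraries, and SkpB and nanos higher only in the H2A.V libraries, each judged by the test against CTRL at an adjusted p under 0.01.

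The direct comparison called 2599 genes, 22.8% of those tested. Of these, 1897 were higher after TIP60 than after H2A.V RNAi (16.6%) and 702 were lower (6.14%), and 1113 of the called genes differed at least 2-fold (9.74%), 807 of them higher (7.06%) and 306 lower (2.68%). The normalized counts of the 3 and 3 libraries did not overlap for 2426 of the called genes, beside 4562 of all genes tested (39.9%). All 3 same-numbered pairs of libraries moved in the direction of the fit for 2597 of the called genes, beside 6939 of all genes tested. A call largely requires such a shared direction, so the count of 2597 is no further support. The counts moved by more than 1.5 times without TIP60 replicate 1, which left 1129 genes higher and 390 lower, and without H2A.V replicate 1, which left 1082 higher and 431 lower. Without H2A.V replicate 2, the library with the weaker knock-down, 1272 genes were higher and 609 lower. With any one of the 9 TIP60, H2A.V and CTRL libraries left out, 1339 of the calls held throughout.

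How many genes lay on each side depended on the scaling. With the size factors of D. virilis the log2 fold-changes of all genes had a median of 0.19, and 73.0% of the called genes were higher after TIP60 RNAi. With TMM factors of the D. melanogaster counts themselves, 1323 genes were higher and 1269 lower (51.0% higher) around a median of 0.00. With the total D. virilis counts in place of their size factors, 751 were higher and 1655 lower (31.2% higher), around a median of -0.15. The log2 ratio of the D. virilis to the D. melanogaster size factor, which is larger where a library holds less D. melanogaster RNA, was -0.02, 0.10 and -0.001 in the TIP60 libraries and 0.24, 0.32 and 0.10 in the H2A.V libraries. The ranges of the groups overlapped (difference of means -0.19, exact two-sided permutation test, p = 0.2, where 0.1 is the smallest that 3 against 3 libraries allow). In all 3 same-numbered pairs the ratio was lower after TIP60 RNAi, by differences of -0.26, -0.21 and -0.10, and the exact two-sided paired permutation test, added after the data were seen, gave p = 0.25, the smallest that 3 pairs allow. Less RNA per cell and fewer cells cannot be told apart from these ratios. The leading genes of the classes described below were called in the same direction under all 4 other scalings.

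**Figure D2:**
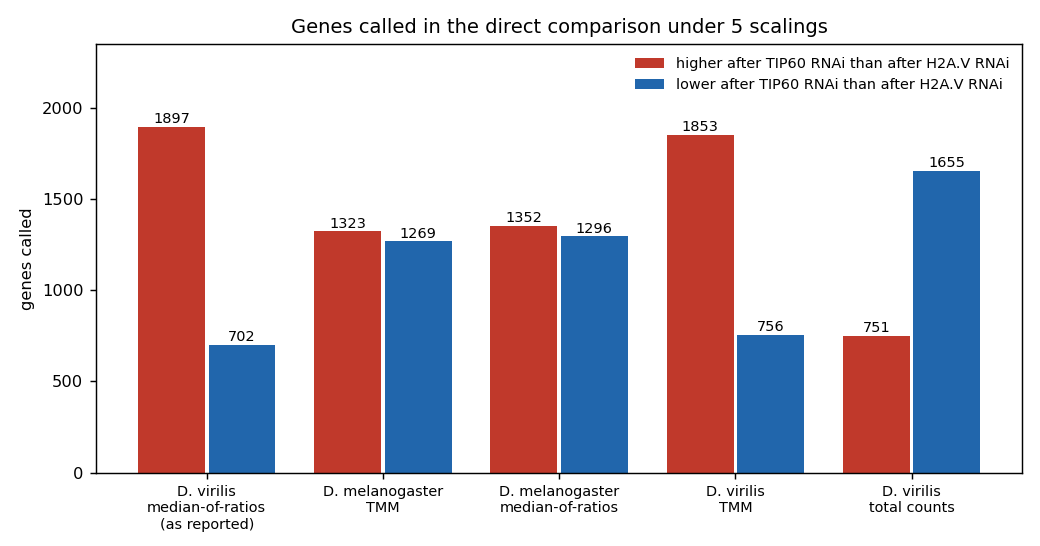
Number of genes called in the direct comparison (adjusted p under 0.01) with the scaling of the report and with 4 others. Red bars count genes higher and blue bars genes lower after TIP60 than after H2A.V RNAi, and the larger side changes from 1897 genes higher to 1655 genes lower when total D. virilis counts replace their size factors.

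To tell which knock-down moved a gene, the called genes were sorted by the comparisons with CTRL. TIP60 RNAi against CTRL called 557 genes higher (4.88%) and 963 lower (8.43%), and H2A.V RNAi against CTRL called 140 higher (1.23%) and 1316 lower (11.5%). Among the genes of the direct comparison, 414 were lower after TIP60 RNAi than in both other groups (3.62% of genes tested), 412 were higher after TIP60 RNAi (3.61%), 745 were lower after H2A.V RNAi (6.52%) and 69 were higher after H2A.V RNAi (0.604%). A gene could fall into more than 1 of these classes, and 983 called genes fell into none. The 3 comparisons share libraries, so the classes are a description of where the levels lay and not a further test. Their sizes moved with the scaling as well: 356 of the 414, 267 of the 412, 192 of the 745 and 67 of the 69 genes stayed in their class under all 4 other scalings.

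The genes lowered by TIP60 RNAi included enzymes, a receptor and several genes without a described function. mthl7, a receptor of the Methuselah family on chromosome 3L, had 19.6, 19.9 and 14.7 normalized counts after TIP60 RNAi, 183, 249 and 135 after H2A.V RNAi and 112, 201 and 79.3 in CTRL (log2 fold-change -3.35, SE 0.20, adjusted p = 4.48e-07). Counted without regard to the strand, its log2 fold-change was -2.002. Nos, which encodes the nitric oxide synthase, had 28.9, 30.5 and 27.4 after TIP60 RNAi, 212, 145 and 244 after H2A.V RNAi and 147, 208 and 119 in CTRL (log2 fold-change -2.78, SE 0.31, adjusted p = 2.47e-05). In both genes the 3 TIP60 libraries lay within a narrow range far below the other 6, which overlapped with each other. ndl, the nudel protease that acts in the dorsoventral patterning of the embryo, was likewise low only after TIP60 RNAi, at 39.1, 27.9 and 44.0 against 255, 175 and 254 after H2A.V RNAi (log2 fold-change -2.61, SE 0.23, adjusted p = 4.87e-06). CG30022 had 466, 494 and 447 after TIP60 RNAi and 2208, 3908 and 1667 after H2A.V RNAi (log2 fold-change -2.44, SE 0.27, adjusted p = 2.59e-05). The other leading genes of the class, CG34355, CG14787 and CG1143, belong to the genes that moved in opposite directions and are described with them.

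Over the 414 genes the median log2 fold-change was -0.86 against H2A.V RNAi and -0.91 against CTRL, and -0.05 for H2A.V RNAi against CTRL, beside -0.22 for all genes in that last comparison. H2A.V RNAi also lowered 13 of them and raised 9, beside 11.5% lowered and 1.23% raised over all genes. The class asks for a level below that after H2A.V RNAi, so these counts are partly set by its definition. Their median in CTRL was 899 normalized counts, beside 191 for all genes tested and 429 for all genes called in the direct comparison. None had a CTRL mean under 10. A called fall from CTRL needs reads in CTRL, so these values partly follow from the definition of the class. The class held 248 genes without CTRL replicate 1, 207 without TIP60 replicate 1 and 252 without TIP60 replicate 2.

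The genes raised by TIP60 RNAi included several that were almost unread in CTRL. CG33460 had 1255, 902 and 908 normalized counts after TIP60 RNAi, 10.5, 15.8 and 25.5 after H2A.V RNAi and 10, 18.0 and 25.8 in CTRL (log2 fold-change 5.90, SE 0.41, adjusted p = 1.54e-06). jp, which encodes the junctophilin that ties the plasma membrane to the endoplasmic reticulum, had 785, 953 and 599 after TIP60 RNAi, 25.9, 25.9 and 33.2 after H2A.V RNAi and 20, 38.1 and 37.8 in CTRL (log2 fold-change 4.77, SE 0.39, adjusted p = 3.69e-06). In both genes the H2A.V libraries lay among those of CTRL. Nplp2, a neuropeptide-like precursor, had 6630.5, 1818 and 5512 after TIP60 RNAi and 99.6, 150.3 and 151 after H2A.V RNAi (log2 fold-change 5.04, SE 0.44, adjusted p = 6.01e-06), with TIP60 replicate 2 the lowest of its group and still far above every H2A.V library. mthl2, another receptor of the Methuselah family, had 1003, 1046 and 477 after TIP60 RNAi, 21.1, 15.8 and 45.1 after H2A.V RNAi and 4.44, 0 and 4.61 in CTRL (log2 fold-change 4.93, SE 0.51, adjusted p = 1.64e-05). Here the H2A.V libraries too stood above CTRL, but that difference did not pass the test (adjusted p = 0.0192). Sr-CI, a scavenger receptor of blood cells, and NimB5 of the Nimrod family followed at 5.19 and 4.50, and CG43175 at 5.02.

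The median log2 fold-change of the 412 genes was 1.45 against H2A.V RNAi and 1.36 against CTRL, and 315 of them differed at least 2-fold from H2A.V RNAi. H2A.V RNAi lowered 15 of them and raised 6, beside 11.5% lowered and 1.23% raised over all genes. These counts too are partly set by the definition of the class. Their median level in CTRL was 293 normalized counts, beside 191 for all genes tested. A CTRL mean under 10 was found for 71 of the 412, a smaller share than the 3519 of all 11424 genes tested. The class holds some genes nearly silent in CTRL next to genes of ordinary level. The class held 214 genes without TIP60 replicate 1, and 197, 254 and 248 without CTRL replicates 1, 2 and 3.

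The 745 genes lowered by H2A.V RNAi made up the largest class, but not with either scaling by D. melanogaster, with total D. virilis counts or without H2A.V replicate 1 or 2. With D. melanogaster size factors the class held 276 genes, beside 549 lowered and 557 raised by TIP60 RNAi. Without H2A.V replicate 1 it held 281, beside 285 and 290, and without H2A.V replicate 2 it held 393, beside 430 and 381. Appl, the amyloid precursor protein-like gene, had 509.5, 896 and 409 normalized counts after TIP60 RNAi, 27.5, 33.8 and 45.1 after H2A.V RNAi and 1200.1, 697 and 603 in CTRL (log2 fold-change 4.02, SE 0.40, adjusted p = 1.20e-05). CG17129 had 218, 208 and 223 after TIP60 RNAi, 12.1, 23.0 and 27.2 after H2A.V RNAi and 202, 164 and 171 in CTRL (log2 fold-change 3.37, SE 0.25, adjusted p = 2.11e-06). CG6495 had 765, 433 and 548 after TIP60 RNAi and 56.7, 61.8 and 50.2 after H2A.V RNAi (log2 fold-change 3.42, SE 0.38, adjusted p = 2.53e-05). In these 3 genes every H2A.V library lay far below the TIP60 libraries, and H2A.V replicate 2, with the weaker loss of its target, lay close to the other replicates. TIP60 RNAi against CTRL called none of the 3 (adjusted p = 0.286 for Appl, 0.381 for CG17129 and 0.251 for CG6495). CG5080 (3.41) followed the same pattern. Parp1, the poly(ADP-ribose) polymerase that binds DNA breaks and promoters, had 4914, 4266 and 4458 after TIP60 RNAi, 540.3, 590.2 and 546 after H2A.V RNAi and 2095, 2391 and 1918 in CTRL (log2 fold-change 3.04, SE 0.38, adjusted p = 6.16e-05), and the difference of TIP60 RNAi from CTRL did not pass the test (1.12, adjusted p = 0.0344).

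Most changes in this class were smaller. Over its 745 genes the median log2 fold-change was 0.93 between the knock-downs, -0.88 for H2A.V RNAi against CTRL and 0.01 for TIP60 RNAi against CTRL, and 319 genes differed at least 2-fold between the knock-downs. TIP60 RNAi raised 15 of them and lowered 16, beside 4.88% raised and 8.43% lowered over all genes. These counts are again partly set by the definition of the class. With TMM factors of D. melanogaster the class held 310 genes and with total D. virilis counts 204, beside 983 then lowered by TIP60 RNAi. It held 281 and 393 genes without H2A.V replicates 1 and 2, 482 without TIP60 replicate 1, and 456, 431 and 398 without CTRL replicates 1, 2 and 3.

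The 69 genes raised by H2A.V RNAi included regulators of the germ line. piwi, the Argonaute protein that silences transposons with piRNAs in the gonad, had 107, 117 and 104 normalized counts after TIP60 RNAi, 780.0, 309.9 and 875 after H2A.V RNAi and 77.8, 169 and 52.5 in CTRL (log2 fold-change -2.69, SE 0.46, adjusted p = 0.000541). H2A.V replicate 2 was the lowest of its group and still above every TIP60 and CTRL library. nanos, a translational repressor of germ cells, had 81.0, 104 and 70.3 after TIP60 RNAi, 379.9, 425 and 285 after H2A.V RNAi and 67.8, 90.0 and 55.3 in CTRL (log2 fold-change -2.09, SE 0.16, adjusted p = 2.11e-06). SkpB, a relative of the SCF ubiquitin ligase subunit Skp1, had 91.3, 96.9 and 96.7 after TIP60 RNAi, 511, 581 and 553 after H2A.V RNAi and 121, 195 and 100.5 in CTRL (log2 fold-change -2.52, SE 0.21, adjusted p = 4.56e-06). The 3 H2A.V libraries of nanos and SkpB lay above every other library of these groups. CG43191 had a log2 fold-change of -2.55, and -2.12 without regard to the strand, where reads of an overlapping gene on the other strand are counted too.

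The median log2 fold-change of the class was -1.72 against H2A.V RNAi and 1.41 for H2A.V RNAi against CTRL. These genes had a median of 64.0 normalized counts in CTRL, beside 191 for all genes tested. A CTRL mean under 10 was found for 15 of the 69, a smaller share than the 3519 of all 11424 genes tested. The class was small in every fit that left out a library, with 25 and 40 genes without H2A.V replicates 1 and 2, 37 without TIP60 replicate 1, and 29, 30 and 26 without CTRL replicates 1, 2 and 3.

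A few genes were called against CTRL in opposite directions. The direct comparison called them too, which largely follows from how they were chosen and is no further support. There were 9 genes lower after TIP60 and higher after H2A.V RNAi. CG34355 had 263, 186 and 285 normalized counts after TIP60 RNAi, 2314, 1746 and 2720.3 after H2A.V RNAi and 522, 861 and 410.2 in CTRL (log2 fold-change -3.20, SE 0.31, adjusted p = 9.45e-06). CG14787 had 22.4, 27.9 and 28.3 after TIP60 RNAi, 264, 419.8 and 123 after H2A.V RNAi and 121, 135 and 59.9 in CTRL (log2 fold-change -3.20, SE 0.35, adjusted p = 2.22e-05). For CG14787, H2A.V replicate 3 lay within the range of CTRL but above the CTRL library of its own number. RpS19b, a second copy of a ribosomal protein gene that is used mainly in the ovary, had 326, 323 and 318 after TIP60 RNAi, 1284, 1193 and 1323 after H2A.V RNAi and 600.0, 762 and 458 in CTRL (log2 fold-change -1.98, SE 0.17, adjusted p = 4.56e-06), with no overlap among the groups. CG1143 (-2.52) and Srx, the sulfiredoxin gene (-2.24), showed the same order.

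The reverse was found for 15 genes, higher after TIP60 and lower after H2A.V RNAi. blanks, which encodes a nuclear protein that binds double-stranded RNA, had 4364, 4497 and 5026 normalized counts after TIP60 RNAi, 446, 322 and 733 after H2A.V RNAi and 1798, 2291 and 3290.4 in CTRL (log2 fold-change 3.25, SE 0.25, adjusted p = 2.23e-06). He, the Hemese surface protein of blood cells, had 1872, 1068 and 3155 after TIP60 RNAi, 82.6, 64.0 and 280.1 after H2A.V RNAi and 191, 163 and 685 in CTRL (log2 fold-change 3.99, SE 0.33, adjusted p = 4.50e-06). The values of He were highest in replicate 3 of every group, so that H2A.V replicate 3 overlapped with CTRL replicates 1 and 2 while each same-numbered comparison kept its direction. YL-1, a subunit of the SWR1-like complex that carries the H2A.V dimer, was the only member of the DOM complex list among the 15.

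The libraries of the Domino isoforms offered a comparison that uses none of the TIP60, H2A.V or CTRL libraries, although the spread and the replicate block were estimated in the same fit. DOM-A RNAi against DOM-B RNAi called 832 genes higher (7.28%) and 1158 lower (10.1%). Of the 414 genes lowered by TIP60 RNAi, 324 (78.3%) were also lower after DOM-A than after DOM-B RNAi, and 1 was higher. Of the 412 genes raised by TIP60 RNAi, 269 (65.3%) were higher after DOM-A RNAi and 1 was lower. The classes set by H2A.V went the same way: 199 of the 745 genes lowered by H2A.V RNAi (26.7%) were higher after DOM-A than after DOM-B RNAi and 5 were lower, and 50 of the 69 genes raised by H2A.V RNAi (72.5%) were lower after DOM-A RNAi and none was higher. Called genes in no class did so too. Of the 755 that were higher after TIP60 than after H2A.V RNAi, 195 (25.8%) were higher after DOM-A RNAi, a share close to the 26.7%. Of the 228 that were lower, 98 (43.0%) were lower after DOM-A RNAi. When each comparison was fitted on its own groups alone, so that no other library entered, the share was 61.2% for the genes lowered and 40.1% for the genes raised by TIP60 RNAi, and 16.7% for the genes lowered and 39.01% for the genes raised by H2A.V RNAi. In the joint fit the share of the 745 genes was 16.3% without DOM-B replicate 1 and 16.5% without DOM-B replicate 3.

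The difference between DOM-A and DOM-B RNAi (log2, DOM-A minus DOM-B) had a median of -0.87 in the genes lowered by TIP60 RNAi, 0.98 in those raised by it, 0.34 in those lowered by H2A.V RNAi and -1.81 in those raised by it, beside -0.02 over all genes tested. Across the 11424 genes the Spearman correlation of TIP60 minus H2A.V with DOM-A minus DOM-B was 0.57, and a filter of 10 reads in 3 libraries, which 8702 genes passed, gave 0.72. This is a description across genes, which are not independent, and the libraries on both sides share the replicate numbers. Single genes show the likeness in their levels: mthl7 had 19.96 ± 8.50 normalized counts in the DOM-A libraries and 396 ± 175 in the DOM-B libraries, CG33460 had 1629 ± 319 in the DOM-A libraries and 87.7 ± 56.5 in the DOM-B libraries, and SkpB had 70.4 ± 13.3 in the DOM-A libraries and 511 ± 234 in the DOM-B libraries (mean ± SD, n = 3 each). The knocked-down genes did not share it, with Tip60 higher after DOM-A than after DOM-B RNAi (0.65, adjusted p = 0.00434) and His2Av not called (-0.35, adjusted p = 0.624).

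**Figure D3:**
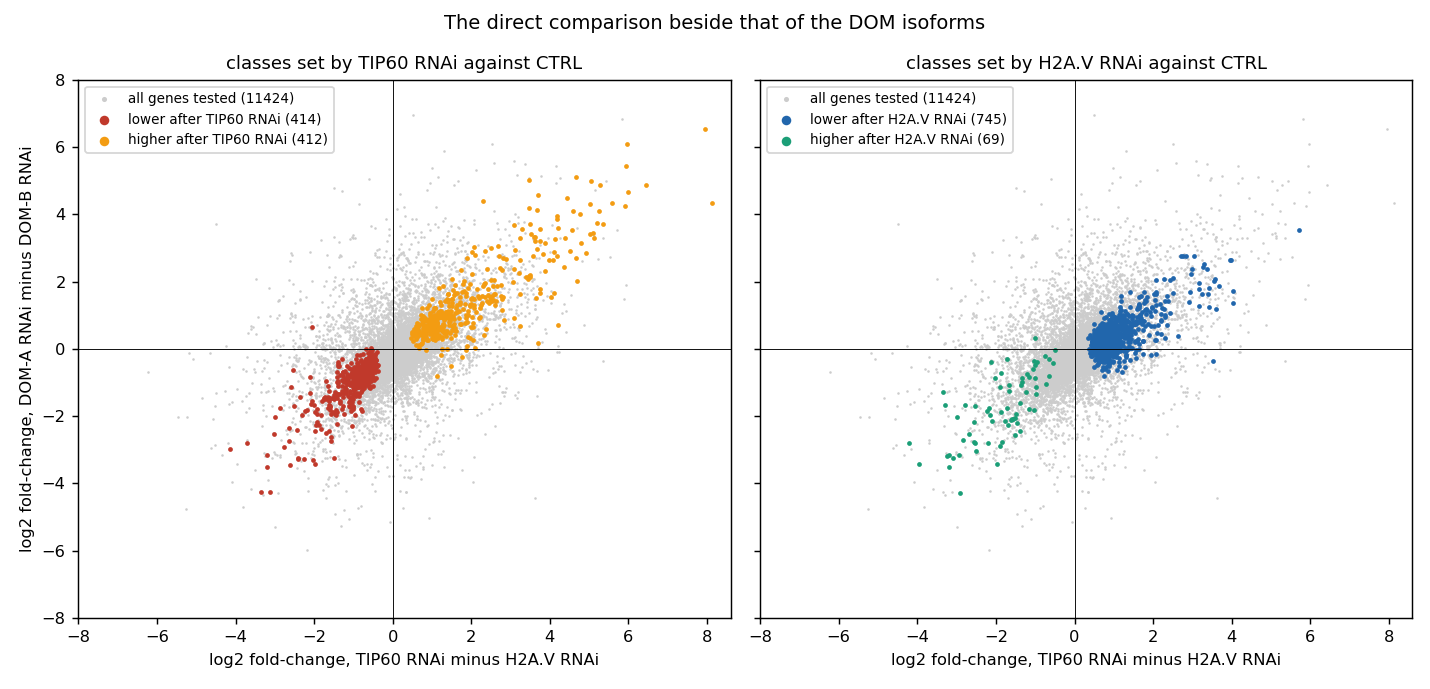
Log2 fold-changes of 11424 genes (grey), TIP60 minus H2A.V RNAi on the x axis and DOM-A minus DOM-B RNAi on the y axis. Colours mark the classes set by TIP60 RNAi against CTRL (left) and by H2A.V RNAi against CTRL (right), and the coloured genes sit mostly at the lower left and upper right, with medians on the y axis of -0.87 (lower after TIP60 RNAi), 0.98 (higher after TIP60 RNAi), 0.34 (lower after H2A.V RNAi) and -1.81 (higher after H2A.V RNAi).

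The machinery itself was examined next. Of 19 subunits and associated factors of the DOM complexes, 8 were higher and 1, Tip60, lower after TIP60 than after H2A.V RNAi. Over all genes 16.6% were higher and 6.14% lower. The median log2 fold-change of the list was 0.39 beside 0.19 for all genes. The ATPase gene dom had 8665, 6526 and 8725 normalized counts after TIP60 RNAi, 4522, 3562 and 5907 after H2A.V RNAi and 4378, 4193 and 5103 in CTRL (log2 fold-change 0.78, SE 0.14, adjusted p = 0.000541). It lay above CTRL only after TIP60 RNAi (0.80, adjusted p = 0.000831). YL-1 had 726, 724 and 694 after TIP60 RNAi, 332, 309 and 313 after H2A.V RNAi and 521, 520.1 and 550.3 in CTRL (log2 fold-change 1.17, SE 0.11, adjusted p = 7.01e-06), a rise after TIP60 RNAi (0.43, adjusted p = 0.00856) and a fall after H2A.V RNAi (-0.74, adjusted p = 0.000307). Gas41, a reader of acetylated histones, had 190.0, 154 and 148 after TIP60 RNAi, 65.6, 82.7 and 75.8 after H2A.V RNAi and 134, 185 and 135 in CTRL (log2 fold-change 1.13, SE 0.20, adjusted p = 0.000583), and MRG15, a chromodomain protein, had a log2 fold-change of 0.71. Both were lower after H2A.V RNAi than in CTRL (-1.01, adjusted p = 0.00245 for Gas41 and -0.86, adjusted p = 0.000268 for MRG15). dom and MRG15 were not called with total D. virilis counts. With TMM factors of D. melanogaster 4 genes of the list were higher and 3 lower, and with total D. virilis counts 2 were higher and 3 lower. Ing3, Brd8, Arp6 and DMAP1 had log2 fold-changes of 0.47, 0.61, 0.51 and 0.51, and their calls were lost in at least 4 of the 6 fits that left out 1 TIP60 or H2A.V library. The list had 4 genes higher without TIP60 replicates 1 or 3 or H2A.V replicate 2.

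Other chromatin genes were called in both directions. Among 18 histone variants and chaperones 1, His2Av, was higher and 4 were lower. His3.3A, one of the genes for the replacement histone H3.3, had 1290.1, 1299.9 and 1343 after TIP60 RNAi and 2240.4, 2510.5 and 2651 after H2A.V RNAi (log2 fold-change -0.91, SE 0.13, adjusted p = 0.000181), and His4r, a gene for H4 outside the histone cluster, had 2339, 2521 and 2254 after TIP60 RNAi and 3852, 4447 and 3914 after H2A.V RNAi (log2 fold-change -0.78, SE 0.12, adjusted p = 0.000223). His4r was also called lower after H2A.V RNAi than in CTRL (-0.47, adjusted p = 0.00981), and His3.3A was not (-0.31, adjusted p = 0.108). Of 21 acetyltransferases, deacetylases and dosage compensation genes 1 was higher and 4 were lower. The higher one, the deacetylase Sirt6, had 75.5, 62.4 and 59.6 after TIP60 RNAi and 21.1, 25.9 and 23.0 after H2A.V RNAi (log2 fold-change 1.47, SE 0.23, adjusted p = 0.000267). On the lower side were Sirt1 (-1.06), CoRest (-0.84) and mof, the acetyltransferase of the dosage compensation complex (-0.75). Of 32 Polycomb and trithorax group genes 1 was higher, escl (0.96), and 6 were lower, among them brm, the ATPase of the SWI/SNF remodeler (-0.96), Asx (-0.86) and ash2 (-0.79). Over all genes 22.8% were called, 16.6% higher and 6.14% lower. The lower side held 10 genes with TMM factors of D. melanogaster and 16 with total D. virilis counts, where escl was not called.

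Many genes of blood cells were higher after TIP60 RNAi. Of 21 tested blood cell markers 16 were higher after TIP60 than after H2A.V RNAi and none was lower, with a median log2 fold-change of 1.66. Over all genes 16.6% were higher and 6.14% lower. Against CTRL, TIP60 RNAi raised 11 of them and lowered none, beside 4.88% raised and 8.43% lowered over all genes. H2A.V RNAi raised 1 and lowered 4, beside 1.23% raised and 11.5% lowered. NimC1, a phagocytosis receptor of plasmatocytes, had 805, 671 and 755 normalized counts after TIP60 RNAi, 45.4, 24.4 and 94.5 after H2A.V RNAi and 35.6, 25.4 and 96.8 in CTRL (log2 fold-change 4.03, SE 0.46, adjusted p = 3.36e-05). Sr-CI had 276, 560.3 and 219 after TIP60 RNAi, 8.10, 6.47 and 15.3 after H2A.V RNAi and 22.2, 18.0 and 24.0 in CTRL (log2 fold-change 5.19, SE 0.56, adjusted p = 2.18e-05). The defining marker eater, another phagocytosis receptor, had 619, 498 and 509.9 after TIP60 RNAi, 177, 121 and 245 after H2A.V RNAi and 162, 203 and 171 in CTRL (log2 fold-change 1.59, SE 0.30, adjusted p = 0.00101). In these genes the TIP60 libraries lay above all others, and the H2A.V libraries overlapped with CTRL or lay below it.

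Further blood cell genes were almost unread in the H2A.V libraries. PPO2, a prophenoloxidase of crystal cells, had 61, 72 and 163 reads in the TIP60 libraries, 0, 2 and 2 in the H2A.V libraries and 0, 2 and 2 in CTRL. Sr-CIII had 39, 97 and 24 reads in the TIP60 libraries, 0, 2 and 1 in the H2A.V libraries and 0, 1 and 0 in CTRL. Sr-CII had 35, 21 and 35 reads in the TIP60 libraries and 0, 0 and 2 in the H2A.V libraries, but 15, 15 and 17 in CTRL, and it was called lower after H2A.V RNAi than in CTRL (adjusted p = 0.00521), while TIP60 RNAi against CTRL did not pass the test (adjusted p = 0.267). All 3 were called in the direct comparison (adjusted p = 4.50e-06, 7.93e-05 and 0.000507), and no fold is given on so few reads. Among the transcription factors of the lineage, ush and zfh1 had log2 fold-changes of 0.72 and 0.80 and were called, and srp, at 0.42, was not. The scavenger receptor gene crq, at 0.01, was not called either. The summed level of the 22 markers was 41269.8 to 76431 normalized counts in TIP60, 20286 to 48594 in H2A.V and 30657 to 41523 in CTRL libraries, ranges that overlap. The count of 16 fell to 11 without TIP60 replicate 1, H2A.V replicate 1 or H2A.V replicate 2, and to 11 with total D. virilis counts. Kc167 cells are themselves of blood cell character.

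Immune genes were called in the same direction. Of 12 tested genes for antimicrobial peptides 4 were higher after TIP60 RNAi and none was lower, in each fit that left out a library. Over all genes 16.6% were higher and 6.14% lower. The antifungal peptide gene Drs had 725, 117 and 251 normalized counts after TIP60 RNAi, 45.4, 18.7 and 41.7 after H2A.V RNAi and 31.1, 26.5 and 25.8 in CTRL (log2 fold-change 3.22, SE 0.52, adjusted p = 0.000364). CecC had 40.1, 49.1 and 53.7 after TIP60 RNAi and 1.62, 0.719 and 3.41 after H2A.V RNAi (adjusted p = 0.000154), and CecA1 had 20.5, 7.97 and 42.0 after TIP60 RNAi and 1.62, 0.719 and 3.41 after H2A.V RNAi (adjusted p = 0.000362), with too few reads after H2A.V RNAi for a fold. AttD had 70.8, 66.4 and 113 after TIP60 RNAi and 7.29, 7.91 and 26.4 after H2A.V RNAi (log2 fold-change 2.72, SE 0.38, adjusted p = 0.000127). Of 22 genes of the Toll and IMD pathways 9 were higher and none lower, beside the same 16.6% and 6.14% over all genes. Tl, the Toll receptor, had 633, 341 and 790.2 after TIP60 RNAi, 39.7, 19.4 and 67.3 after H2A.V RNAi and 80.0, 65.7 and 165 in CTRL (log2 fold-change 3.83, SE 0.36, adjusted p = 7.90e-06). cact, the inhibitor of the Toll pathway, had 5369, 2590.5 and 6452 after TIP60 RNAi and 1408, 986 and 3235 after H2A.V RNAi (log2 fold-change 1.42, SE 0.21, adjusted p = 0.000151), where TIP60 replicate 2 lay below H2A.V replicate 3 while each same-numbered pair kept the direction. pirk, an inhibitor of the IMD pathway, had a log2 fold-change of 2.52. The count of 9 fell to 4 without TIP60 replicate 1 or H2A.V replicate 2, to 5 without TIP60 replicate 2 or H2A.V replicate 1, and with total D. virilis counts 3 were higher and 2 lower.

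**Figure D4:**
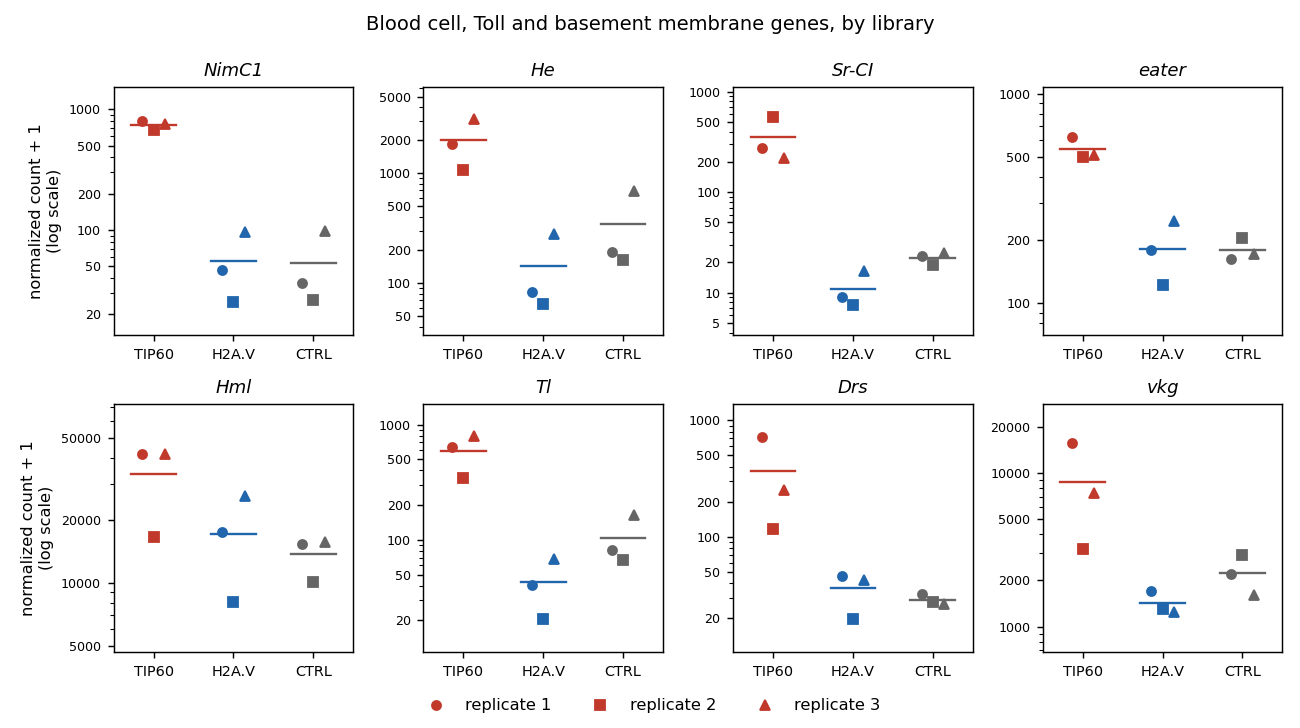
Normalized counts plus 1 (log axis) of genes of blood cells (NimC1, He, Sr-CI, eater, Hml), of the Toll pathway (Tl, Drs) and of the basement membrane (vkg) in the 3 TIP60, 3 H2A.V and 3 CTRL libraries; symbols mark the replicate number and lines the group means. In every panel but that of Hml the 3 TIP60 libraries lie above the 3 H2A.V libraries, and TIP60 replicate 2 is the lowest of its group in every panel but that of Sr-CI.

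Of 15 basement membrane genes 5 were higher after TIP60 RNAi and none was lower, beside 16.6% higher and 6.14% lower over all genes. vkg, a chain of collagen IV, had 15610.3, 3208 and 7443 after TIP60 RNAi, 1715, 1307 and 1239.7 after H2A.V RNAi and 2191, 2911 and 1607 in CTRL (log2 fold-change 2.61, SE 0.47, adjusted p = 0.000709), with TIP60 replicate 1 far above replicate 2. Col4a1, the other chain, had 24169.9, 2969 and 11699 after TIP60 RNAi and 3403, 2985 and 2021 after H2A.V RNAi, and its call (2.21, adjusted p = 0.0047) was lost in 5 of the 6 fits without 1 of these libraries. The list fell to 2 genes without TIP60 replicate 1 or H2A.V replicates 1 or 2 and to 3 without TIP60 replicate 3. LanB1, a laminin chain, had 28862, 19569 and 22198 after TIP60 RNAi and 12420.1, 10245 and 12466 after H2A.V RNAi (log2 fold-change 0.99, SE 0.18, adjusted p = 0.000697). With total D. virilis counts 1 gene of the list was called, and LanB1 and Col4a1 were not.

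Genes of cell division lay on the other side. Of 43 mitosis genes 14 were lower after TIP60 than after H2A.V RNAi and none was higher, with a median log2 fold-change of -0.52. Over all genes 6.14% were lower and 16.6% higher. Against CTRL, TIP60 RNAi lowered 16 and H2A.V RNAi 1, beside 8.43% and 11.5% over all genes. The kinesin gene ncd had 726, 522 and 687 normalized counts after TIP60 RNAi, 2080.0, 1577 and 1834 after H2A.V RNAi and 1431, 1464 and 1331 in CTRL (log2 fold-change -1.50, SE 0.20, adjusted p = 9.59e-05). Incenp, a subunit of the Aurora B complex, had 936, 721 and 961 after TIP60 RNAi, 2828, 2232 and 2328 after H2A.V RNAi and 2394, 2176 and 1793 in CTRL (log2 fold-change -1.48, SE 0.19, adjusted p = 6.68e-05), and CycB3 and tum, a cyclin and a cytokinesis factor, had -1.22 and -1.19. In all 4 the TIP60 libraries lay below every other library of the 3 groups. The number of lower genes was 9 without TIP60 replicates 1 or 2, 7 without H2A.V replicate 1 and 26 with TMM factors of D. melanogaster. Of 34 DNA replication genes 6 were lower and none higher, beside 6.14% lower and 16.6% higher over all genes. The helicase subunits Mcm3 and dpa had -0.88 and -0.69. The number of lower genes was 2 without TIP60 replicates 1 or 2 or H2A.V replicates 1 or 3, and 18 were lower with TMM factors of D. melanogaster.

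Repair genes fell on both sides, with more of them lower. Of 29 genes of the DNA damage response 3 were higher and 8 lower after TIP60 RNAi, beside 16.6% higher and 6.14% lower over all genes. With either scaling by D. melanogaster 1 was higher and 11 were lower, and with total D. virilis counts 1 and 12. Msh6, of mismatch repair, had 1497, 1268 and 1475 after TIP60 RNAi and 3071, 2766 and 3207 after H2A.V RNAi (log2 fold-change -1.09, SE 0.15, adjusted p = 0.000117). Parp1 was the largest difference on the higher side. The lower count was 4 without TIP60 replicate 1 and 5 without TIP60 replicate 2 or H2A.V replicate 1. Of 18 apoptosis genes 4 were higher and none lower, beside 16.6% higher over all genes, and 3 were higher and 1 lower with total D. virilis counts and with either scaling by D. melanogaster. The 4 included egr, the TNF ligand, at 1168, 441 and 979 after TIP60 RNAi and 237, 82.0 and 345 after H2A.V RNAi (log2 fold-change 2.01, SE 0.38, adjusted p = 0.000979), and hid, an activator of caspases (1.57). The list fell to 2 genes in each fit without TIP60 replicates 2 or 3 or H2A.V replicates 1 or 2.

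Of 84 tested genes for cytosolic ribosomal proteins 66 were higher after TIP60 than after H2A.V RNAi and 1, RpS19b, was lower. Over all genes 16.6% were higher and 6.14% lower. The median log2 fold-change of the list was 0.68. Against CTRL, TIP60 RNAi raised 9 and lowered 1, beside 4.88% raised and 8.43% lowered over all genes. H2A.V RNAi raised 1 and lowered 16, beside 1.23% and 11.5%. Of the 67 called genes, 43 fell into none of the classes. RpL39 had 24186, 23838 and 18474 normalized counts after TIP60 RNAi, 9226, 9587 and 11199 after H2A.V RNAi and 14549, 12998 and 12755 in CTRL (log2 fold-change 1.14, SE 0.14, adjusted p = 6.69e-05). RpS14b had a log2 fold-change of 1.28, which is uncertain, as is that of RpS19b, since near-identical copies of these genes exist and reads with several positions had been discarded. The number of higher genes was 41 with TMM factors of D. melanogaster and 31 with total D. virilis counts, and 44 without H2A.V replicate 1.

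Of 71 genes for mitochondrial ribosomal proteins 25 were higher and 2 lower after TIP60 RNAi, beside 16.6% higher and 6.14% lower over all genes. Against CTRL, TIP60 RNAi lowered 10 of the 71 and H2A.V RNAi 40, beside 8.43% and 11.5% over all genes. mRpS18B had 352, 372 and 327 after TIP60 RNAi, 134, 149 and 149 after H2A.V RNAi and 298, 347 and 324 in CTRL (log2 fold-change 1.28, SE 0.15, adjusted p = 4.36e-05), with the TIP60 libraries overlapping with CTRL. mRpS17 was also higher (1.14). The number of higher genes was 14 without TIP60 replicate 1, 13 and 14 without H2A.V replicates 1 and 2, and 5, with 5 lower, under total D. virilis counts. Of 77 nuclear genes for oxidative phosphorylation 9 were higher and 2 lower, beside 16.6% higher and 6.14% lower over all genes. Their median log2 fold-change was 0.04, beside 0.19 for all genes. Against CTRL, TIP60 RNAi lowered 22 and H2A.V RNAi 26, beside 8.43% and 11.5% over all genes. UQCR-C1, a core subunit of complex III, had 2880.2, 2942 and 2361 after TIP60 RNAi and 5450.3, 6595 and 4765 after H2A.V RNAi (log2 fold-change -1.04, SE 0.12, adjusted p = 3.07e-05), and SdhD, a membrane anchor of complex II, had 920.3, 896 and 788 after TIP60 RNAi and 467, 485 and 509 after H2A.V RNAi (log2 fold-change 0.83, SE 0.12, adjusted p = 0.000137). The number of higher genes was 4 or 5 without TIP60 replicates 1 or 3 or H2A.V replicates 1 or 2. With TMM factors of D. melanogaster 4 were higher and 11 lower, and with total D. virilis counts 1 and 18.

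Of 12 glycolytic enzymes 1 was higher and 5 were lower after TIP60 RNAi, with a median log2 fold-change of -0.40. Over all genes 16.6% were higher and 6.14% lower. Without the replicate block 1 enzyme was lower and none higher. The lower count was 4 to 6 in the fits that left out a TIP60 or H2A.V library. With either scaling by D. melanogaster 5 were lower and with total D. virilis counts 7, and none was higher. Tpi, the triose phosphate isomerase, had 709, 975 and 389 normalized counts after TIP60 RNAi, 2654, 3211 and 1759.9 after H2A.V RNAi and 3144, 3741 and 2544 in CTRL (log2 fold-change -1.92, SE 0.14, adjusted p = 1.60e-06). Pglym78, a phosphoglycerate mutase, had 1012, 1284 and 716 after TIP60 RNAi and 1711, 2152 and 1391 after H2A.V RNAi (log2 fold-change -0.82, SE 0.10, adjusted p = 4.57e-05), and Pgi (-0.82) and Pgk (-0.62) overlapped between the groups, with replicate 2 the highest and replicate 3 the lowest in both. The 5 lower enzymes were also lower after TIP60 RNAi than in CTRL.

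Genes of the germ line split. Of 17 tested, 4 were higher and 8 lower after TIP60 than after H2A.V RNAi, beside 16.6% higher and 6.14% lower over all genes. Among the lower ones, beside piwi and nanos, bam, the switch of germ cell differentiation, had 161, 131 and 299.9 after TIP60 RNAi, 786, 666 and 793 after H2A.V RNAi and 440.0, 449 and 415 in CTRL (log2 fold-change -1.95, SE 0.24, adjusted p = 5.53e-05), with CTRL between the knock-downs. Among the higher ones AGO3, a piRNA pathway Argonaute, had 2359.5, 2540.0 and 1711 after TIP60 RNAi, 619, 656 and 617 after H2A.V RNAi and 1260.1, 1556 and 1052 in CTRL (log2 fold-change 1.78, SE 0.22, adjusted p = 6.22e-05). The lower count was 4 without TIP60 replicates 1 or 2 or H2A.V replicates 1 or 3. The summed level of the list was 12157 to 13502 normalized counts in TIP60, 13637 to 14472 in H2A.V and 15409.8 to 18475 in CTRL libraries.

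Of 33 neuron and glia markers 6 were higher and 2 lower, near the 16.6% higher and 6.14% lower over all genes. With either scaling by D. melanogaster and with total D. virilis counts 4 were higher and 5 lower. nAChRalpha1, a subunit of the nicotinic acetylcholine receptor, had 2015, 2211 and 1634 after TIP60 RNAi, 407, 436 and 630.1 after H2A.V RNAi and 402, 683 and 546 in CTRL (log2 fold-change 1.999, SE 0.22, adjusted p = 2.10e-05). cac, a calcium channel subunit, had 191, 133 and 234 after TIP60 RNAi, 56.7, 49.6 and 74.1 after H2A.V RNAi and 462, 499 and 397 in CTRL (log2 fold-change 1.64, SE 0.22, adjusted p = 9.02e-05) and was called lower than in CTRL in both knock-downs (-1.29, adjusted p = 0.000544 for TIP60 and -2.93, adjusted p = 3.37e-06 for H2A.V). elav, an RNA-binding protein of neurons, had 55.9, 46.5 and 91.8 after TIP60 RNAi and 207, 158 and 277 after H2A.V RNAi (log2 fold-change -1.71, SE 0.29, adjusted p = 0.000454). The summed levels of the neuron and glia list were 18379.7 to 22370.3 in TIP60, 12936 to 15359.9 in H2A.V and 14228 to 17644 in CTRL libraries, and their part in other results was not tested. Of 19 muscle markers 1 was lower and none higher, beside 6.14% lower and 16.6% higher over all genes. The call was lost in 4 of the 6 fits without 1 TIP60 or H2A.V library. The summed level of the muscle markers was 5876 to 6436 in TIP60, 6457 to 9112 in H2A.V and 8702 to 9446 in CTRL libraries.

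Of the 14 tested receptors of the Methuselah family 4 were higher and 1 lower, in each fit that left out a TIP60 or H2A.V library. Over all genes 16.6% were higher and 6.14% lower. mthl6 had 43, 4 and 33 reads in the TIP60 libraries, 0, 1 and 0 in the H2A.V libraries and none in CTRL (adjusted p = 0.000342), and mthl10 had 174, 155 and 154 normalized counts after TIP60 RNAi, 35.6, 37.4 and 51.1 after H2A.V RNAi and 216, 196 and 191 in CTRL (log2 fold-change 1.96, SE 0.24, adjusted p = 5.25e-05). mthl7 and mthl2 fell to opposite sides with -3.35 and 4.93. mthl10 was lower after H2A.V RNAi than in CTRL (-2.28, adjusted p = 3.71e-05).

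Of 10 genes for metallothioneins and metal handling 3 were higher, the zinc transporters ZnT63C (1.43) and ZnT41F (1.24) and the copper transporter Ctr1A (0.90), and 1 was lower, MtnA, with 327, 1547 and 91.8 after TIP60 RNAi and 1111, 2093 and 622 after H2A.V RNAi, a call (-1.49, adjusted p = 0.00697) that was lost in 4 of the 6 fits without 1 of these libraries. The shares over all genes, for this and the following lists, were 16.6% higher and 6.14% lower. Of 20 genes of the ecdysone response 4 were higher and none lower, beside that 16.6%. The counts were 4 higher and 2 lower with either scaling by D. melanogaster and 1 higher and 2 lower with total D. virilis counts. Among the 4 was the nuclear receptor Eip78C at 797, 932 and 665 after TIP60 RNAi and 295, 357 and 358 after H2A.V RNAi (log2 fold-change 1.24, SE 0.17, adjusted p = 0.000123). Of 22 Notch pathway genes 4 were higher and none lower, again beside 16.6%, and 3 were higher and 2 lower with either scaling by D. melanogaster and with total D. virilis counts. The 4 were led by the ubiquitin ligase neur (1.40) and the protease kuz (1.15). Of 16 genes of JNK and JAK-STAT signalling 3 were higher, led by the matrix protease Mmp1 (1.64), and 1 was lower, near the shares over all genes. This became 1 higher and 2 lower with total D. virilis counts, and 1 higher without TIP60 replicate 1 or H2A.V replicates 1 or 2. Of 22 heat shock genes 4 were lower and none higher, and no call of that list held in all fits that left out a library, the count being 0 without TIP60 replicate 1 or H2A.V replicate 2 and 7 without H2A.V replicate 3. H2A.V replicate 2 was the highest library of Hsp68, which stood at 1478, 1004 and 1261 after TIP60 RNAi and 4628, 6402 and 1622 after H2A.V RNAi. Of 40 proteasome subunits 1 was higher and 4 were lower, with no call held in all such fits, and 12 were lower with TMM factors of D. melanogaster and 19 with total D. virilis counts, with none higher.

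**Figure D5:**
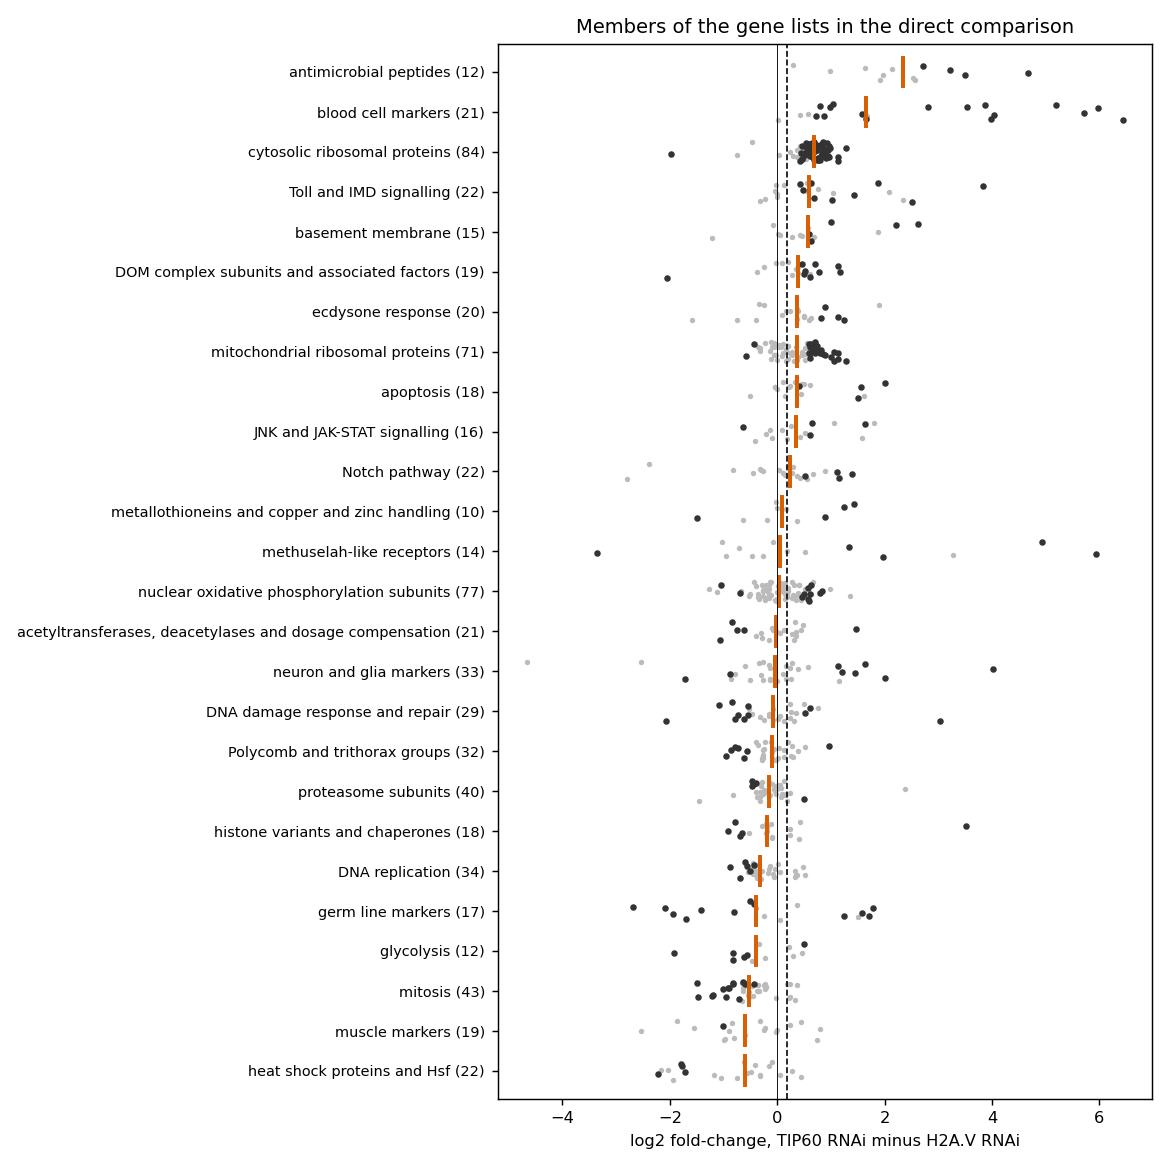
Log2 fold-change of TIP60 minus H2A.V RNAi for every tested member of the 26 gene lists, with the number of members in brackets. Dark points are called genes (adjusted p under 0.01), orange bars list medians, and the dashed line the median of all genes at 0.19. Antimicrobial peptides and blood cell markers have the highest medians at 2.34 and 1.66, and heat shock proteins the lowest at -0.61. The peptide median is uncertain, since 4 of the 12 genes were called and some have too few reads for a fold.

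The lists with a median close to that of all genes changed side with the scaling. With TMM factors of D. melanogaster the medians of oxidative phosphorylation (-0.15), metal handling (-0.11) and Methuselah receptors (-0.14) were below 0, and with total D. virilis counts so were those of the Notch pathway (-0.11) and of JNK and JAK-STAT signalling (-0.01). The medians of blood cell markers (1.29 with total D. virilis counts), antimicrobial peptides (2.06) and cytosolic ribosomal proteins (0.33) stayed above 0, and those of mitosis (-0.87), glycolysis (-0.77) and DNA replication (-0.68) stayed below. The size of the peptide median is uncertain, since some of its genes have too few reads for a fold.

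Features that the definition of the classes had not used were also compared. Annotated exons had a median length of 2420.0 nt in the genes lowered and 2458 nt in the genes raised by TIP60 RNAi, and of 1499 nt in those lowered and 1724 nt in those raised by H2A.V RNAi, beside 1857 nt for all genes tested. Protein-coding genes made up 97.8%, 94.4%, 98.3% and 84.1% of the classes in this order, beside 88.5%. The X chromosome carried 20.05%, 10.7%, 15.6% and 17.4% of the classes, beside 16.7% of all genes. On chromosome arm 2L 20.1% of the genes tested were higher after TIP60 than after H2A.V RNAi, and on the X chromosome 13.7%. Of the 93 genes tested on the fourth chromosome 10 were higher and 2 lower, and 1 gene there belonged to any class. The part of gene length and level in these shares was not tested.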

How the data were processed

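RNA-seq libraries of 15 samples were used, 3 each of TIP60, H2A.V, DOM-A, DOM-B and CTRL, grouped by sample title; the labels call replicates biological. The authors mapped 50 nt reads of a directional library with STAR (version 2.5.3a, dm6 in the submitters' processing notes), discarded reads with several positions, and deposited counts of reads per gene for D. melanogaster and D. virilis. The column for the sense strand was used here, and the other strand held 2.65 to 3.31% of the reads. Rows that name no gene were left out.

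Library sizes were set by the D. virilis size factors (median of ratios). A gene was tested when 6 or more samples had a read of it (11424 genes). The fit was made with edgeR 4.0.16 (R 4.3.3) over all 15 libraries, with group and replicate number as terms, and p-values were adjusted by Benjamini-Hochberg at a threshold of 0.01. DESeq2 1.42.0, other scalings, filters and designs and the omission of each library were alternatives. The replicate number is a block in the study's design. The deviations of same-numbered TIP60 and H2A.V libraries correlated at 0.19, 0.25 and 0.41, each library most with its own number. Named genes are the knocked-down genes, the called genes of the DOM complex list, up to 4 called members of every other list with the largest change, and in each class the 7 largest fold-changes among genes with a mean of at least 100 normalized counts and the same direction in all 3 same-numbered pairs. Defining markers, further genes with opposite changes and counts of reads were added after the values were seen. Some genes that the rule names are not reported here. The comparison, the 26 lists and the rules were chosen with earlier results of these data known. Coordinates are those of the dm6 annotation, which held 17343 of 17481 gene IDs. The scripts were tested on simulated data. Within-group pairs of libraries differed by more than counting noise (chi-square per degree of freedom 19.9 to 106).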

Additional observations from a re-analysis of the deposited data

Results flagged for a closer look

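Genes that edgeR called against CTRL in opposite directions after the 2 knock-downs (adjusted p under 0.01 in each comparison) were singled out. The direct comparison called them too, which largely follows from how they were chosen and is no further support. There were 9 genes lower after TIP60 and higher after H2A.V RNAi, namely CG34355, CG14787, Acsf3, CG1143, Srx, RpS19b, pst, Dpit47 and CG13928. There were 15 genes higher after TIP60 and lower after H2A.V RNAi, led by He and blanks.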

How the results depend on the processing

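All 125 named genes kept their direction under every alternative, and 82 of them kept their call in each one, while 214 of the 2625 combinations of gene and alternative lost it. The counts depended on the scaling, and the cause of that was not tested. With D. melanogaster size factors 1296 genes were lower after TIP60 than after H2A.V RNAi, H2A.V RNAi against CTRL called 755 genes, 276 genes were lower and 190 higher after H2A.V RNAi, 42.0% of the 276 were called the same way by DOM-A against DOM-B RNAi, and the median of all genes was 0.0029. With TMM factors of D. melanogaster these values were 1269, 762, 310 and 149, with a median of 0.0025. With total D. virilis counts 751 genes were higher and 1655 lower, H2A.V RNAi against CTRL called 598, the 4 classes (lower and higher after TIP60 RNAi, lower and higher after H2A.V RNAi) held 983, 268, 204 and 114 genes, and the median was -0.15. Total counts of both species also turned the spike-in difference to 0.025 (exact permutation test, p = 0.7). DESeq2 called 2217 genes for H2A.V RNAi against CTRL, and the last 3 classes held 621, 1130 and 112. Without a filter the median was 0.13. Fitted on only the groups compared, H2A.V RNAi against CTRL called 2279 genes and DOM-A against DOM-B RNAi 1167, the last class held 141 genes, and DOM-A against DOM-B RNAi called 40.1, 16.7 and 39.01% of the last 3 classes the same way. At an adjusted p under 0.05, 1210 genes were lower, TIP60 and H2A.V RNAi against CTRL and DOM-A against DOM-B RNAi called 2798, 2845 and 3480, and the classes held 802, 833, 1472 and 179.

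With no replicate block the direct comparison called 1349 genes higher and 477 lower after TIP60 RNAi, TIP60 RNAi against CTRL called 924 genes, H2A.V RNAi against CTRL 912 and DOM-A against DOM-B RNAi 1263, and the classes held 263, 239, 497 and 30 genes.

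With 1 library or all of replicate 2 left out, 1082 to 2268 genes were higher and 390 to 944 lower after TIP60 than after H2A.V RNAi. TIP60 RNAi against CTRL called 683 to 2204 genes, H2A.V RNAi against CTRL 531 to 1832, and DOM-A against DOM-B RNAi 1131 to 2912. The classes held 207 to 614, 197 to 717, 281 to 1003 and 25 to 134 genes, and DOM-A against DOM-B RNAi called 60.9 to 87.3, 44.3 to 78.2, 16.3 to 33.6 and 55.2 to 90.0% of them the same way. The median of all genes was 0.14 to 0.26. Genes with a few reads per library, among them several blood cell and antimicrobial peptide genes, carry no usable fold.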
